A study of Mus musculus with 6 samples.

Results

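The genes described here are 10 that mark fetal Leydig cells or answer to hedgehog signals in them, and their RNA was measured in male gonads of E14.5 mouse embryos. They are *Star*, *Cyp11a1*, *Cyp17a1*, *Hsd3b1*, *Insl3*, *Scarb1*, *Nr5a1* and *Lhcgr* on the steroid side and *Ptch1* and *Gli1* on the hedgehog side. They were chosen by name, and every probe whose design accession maps to one of them was taken, which gave 11 probes for 9 of the 10 genes among the 41174 probes of the array that are not controls. No probe was matched to *Insl3*, and its level is not analysed here. The 11 probes occupy 29 of the 43379 spots of an array, since the *Ptch1* and *Gli1* probes are spotted 10 times each. All 11 stood well above background on all 6 arrays, and all 11 were among the 26698 probes tested.

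There were 3 genotypes with 2 arrays each, from gonads that the submitters call biological duplicates, all on a mixed ICR and N2 background. *Nanos2+/-* gonads keep 1 working *Nanos2* allele and serve as the control, so the null allele, which the study writes as a LacZ allele, is present in all 3 genotypes, and no wild-type gonad was measured. *Nanos2-/-* gonads have no working allele. *Nanos2-/-_Tg+* gonads add a transgene, driven by *Nanos2* upstream sequence and taken from a single line, that encodes 3×FLAG-tagged NANOS2-ΔN10, a protein lacking the N-terminal residues through which NANOS2 binds CNOT1 of the CCR4-NOT deadenylation complex. NANOS2 is an RNA-binding protein of male germ cells, whereas the genes described here act in somatic cells, so the comparisons ask whether the RNA of another cell type of the gonad differed between the genotypes. Whether several gonads were pooled for an array is not stated in the labels. The *Nanos2+/-* pair came from slide 1 and the remaining 4 arrays from slide 2, so that genotype and slide cannot be told apart in either comparison with *Nanos2+/-*, while *Nanos2-/-_Tg+* and *Nanos2-/-* shared a slide. The whole gonad was extracted, and fewer Leydig cells and less RNA per Leydig cell cannot be told apart.

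Fetal Leydig cells make the androgens that masculinize the male embryo. Cholesterol reaches the cell partly through the receptor SCARB1, STAR moves it to the inner mitochondrial membrane, CYP11A1 cleaves its side chain to give pregnenolone, and HSD3B1 and CYP17A1 carry the steroid on towards androstenedione. The nuclear receptor NR5A1 (SF-1) switches on many of these genes. Desert hedgehog (DHH) from the neighbouring Sertoli cells is needed for fetal Leydig cells to form; it binds the receptor PTCH1, which frees SMO to activate the GLI factors, and *Ptch1* and *Gli1* are themselves switched on by the pathway, so their RNA is widely used as its readout. LHCGR, the receptor for luteinizing hormone, drives adult Leydig cells, whereas fetal Leydig cells of the mouse form without it.

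Signals were scaled to a common median and are given on the log2 scale, on which 1 unit is a 2-fold difference. On each array 64.1 to 66.7% of probes were well above background, and no spot was saturated. *Nanos2* itself, the targeted gene, was not well above background in *Nanos2-/-* and was so in the other genotypes, as the labels require. It stood at 9.42 and 10.78 in *Nanos2+/-* and higher, at 13.28 and 14.25, with the transgene. *Nanos2-/-_Tg+* thus did not match *Nanos2+/-* in the amount of this RNA. For the 11 probes the 2 arrays of a genotype differed by a median of 0.168 (*Nanos2+/-*), 0.16 (*Nanos2-/-*) or 0.163 (*Nanos2-/-_Tg+*). Over the 24953 probes measured above background on all 6 arrays, these medians were 0.324, 0.191 and 0.174.

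Sequence upstream of the start is shown for 3 of the genes, an enzyme, the receptor whose replicates differed most and a hedgehog target, because NR5A1 and the GLI factors act on the steroid and hedgehog genes through DNA elements. The windows are the 250 bases before a start listed by RefSeq (GRCm38.p6), a build later than that of the array's design, written 5′ to 3′ along the gene, with GC boxes (GGGCGG on either strand) in capitals. They lie at chr3:98859795-98860044 for *Hsd3b1*, chr17:88792015-88792264 for *Lhcgr* and chr13:63565736-63565985 for *Ptch1*, each on the minus strand, and other starts of these genes are not shown.
Hsd3b1: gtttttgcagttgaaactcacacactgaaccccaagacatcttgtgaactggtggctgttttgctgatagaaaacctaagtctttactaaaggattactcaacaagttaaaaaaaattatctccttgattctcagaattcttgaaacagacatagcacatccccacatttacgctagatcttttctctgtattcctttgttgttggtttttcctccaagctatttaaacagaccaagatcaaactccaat
Lhcgr: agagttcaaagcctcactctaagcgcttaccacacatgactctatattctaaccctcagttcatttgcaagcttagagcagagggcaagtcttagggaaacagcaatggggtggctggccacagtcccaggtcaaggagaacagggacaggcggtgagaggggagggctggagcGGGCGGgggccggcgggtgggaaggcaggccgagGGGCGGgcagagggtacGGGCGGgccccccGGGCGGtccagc
Ptch1: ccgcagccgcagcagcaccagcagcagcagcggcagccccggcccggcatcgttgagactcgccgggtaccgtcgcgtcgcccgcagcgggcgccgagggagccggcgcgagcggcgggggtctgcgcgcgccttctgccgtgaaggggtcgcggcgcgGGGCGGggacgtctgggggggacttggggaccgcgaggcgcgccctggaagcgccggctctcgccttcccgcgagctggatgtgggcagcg
The *Hsd3b1* window is 36.4% G and C with no GC box, the *Lhcgr* window 63.2% with 4 GC boxes and the *Ptch1* window 78.4% with 1. A GC box was found in 32.7% of all 32851 windows of this length. Of the 10 genes, 5 have a window in the table (*Cyp11a1*, with 2 windows, and *Insl3* besides these), and none of the 6 windows holds the NR5A1 element spelled CAAGGTCA or CAAGGCCA on either strand, nor the GLI element GACCACCCA. The share of all windows with one of the NR5A1 spellings was 3.28%, and that with the GLI element 0.225%, so these letters are rare in windows this short. Other spellings of either element were not searched.

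None of the 11 probes passed the test in any of the 3 comparisons. A call needed a Benjamini-Hochberg adjusted p below 0.05 over all probes tested (limma over the 6 arrays) and a change of at least 2-fold, and over all probes 0.0674% were called between *Nanos2-/-* and *Nanos2+/-*, 0.105% between *Nanos2-/-_Tg+* and *Nanos2+/-*, and 0.0187% between *Nanos2-/-_Tg+* and *Nanos2-/-*. At an unadjusted p below 0.05, 0, 1 and 0 of the 11 passed, where 9.06, 11.5 and 2.74% of all probes did. The adjusted p of the 11 ran from 0.729 to 0.973 in the first comparison and from 0.332 to 0.948 in the second, and was 1 for all in the third. The 95% interval of the change lay within 2-fold in both directions for 10 of the 11 probes in each comparison, with *Lhcgr* the exception each time. At this scaling the changes of the 8 other genes were thus bounded below 2-fold, which does not show that they are zero, and after normexp background correction *Hsd3b1* was past 2-fold, at 1.08 and 1.06 against *Nanos2+/-*.

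**Figure D1:**
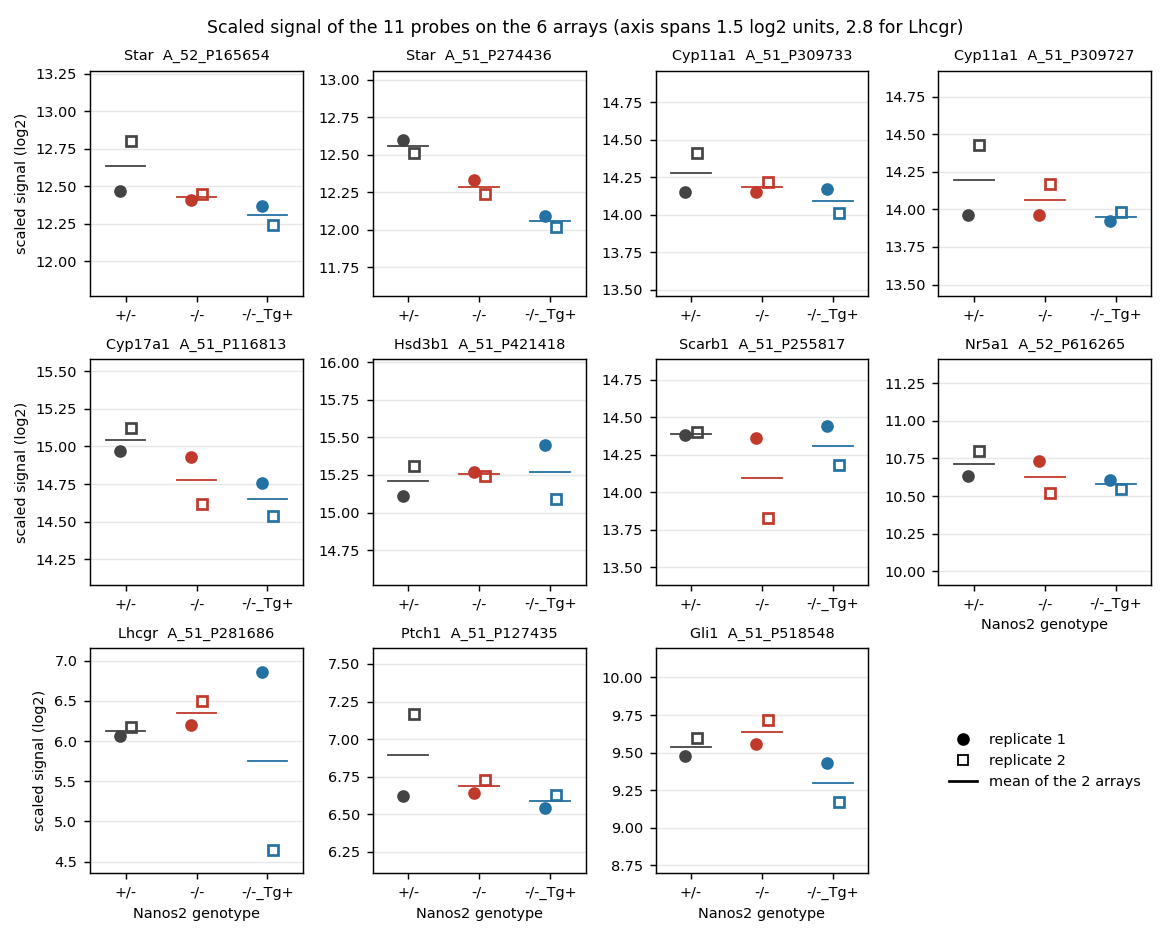
Each panel is 1 probe, with the scaled log2 signal on the vertical axis and the genotype on the horizontal axis; filled circles are replicate 1, open squares replicate 2 and bars the mean of the 2 arrays. The genotypes lie within about the distance between replicates for most probes, the *Star* probes step down from *Nanos2+/-* to *Nanos2-/-_Tg+*, and the *Lhcgr* replicates of *Nanos2-/-_Tg+* lie 2.22 apart.

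The changes were small and mostly towards lower signal. Against *Nanos2+/-*, 8 of the 11 probes were lower in *Nanos2-/-* and 10 of 11 in *Nanos2-/-_Tg+*, and 9 of 11 were lower in *Nanos2-/-_Tg+* than in *Nanos2-/-*; the comparisons share arrays and are not independent. The count of probes higher was 3, 1 and 2 in the 3 comparisons at this scaling, 3, 1 and 1 at the 75th percentile, and 4, 1 and 1 after quantile normalization, but it was 9, 9 and 1 after normexp background correction, under which the median of all probes was itself 0.562 and 0.524 higher in the genotypes of the second slide. Over the 9 genes, with 1 probe a gene, the median change was -0.1 in *Nanos2-/-* and -0.24 in *Nanos2-/-_Tg+* against *Nanos2+/-*, and -0.1 between the last 2 genotypes. The medians over all 12972 genes counted the same way were -0.071, -0.021 and 0.048, and those over all probes -0.035, -0.012 and 0.03. The share of all genes that were lower is not given here. The order *Nanos2+/-*, *Nanos2-/-*, *Nanos2-/-_Tg+* from high to low mean was found for 7 of the 11 probes, those of *Star*, *Cyp11a1*, *Cyp17a1*, *Nr5a1* and *Ptch1*.

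That order rested in part on single arrays. Replicate 2 of *Nanos2+/-* was the highest of the 6 arrays for 6 of the 11 probes, and replicate 2 of *Nanos2-/-_Tg+* was the lowest for 7. Without that *Nanos2-/-_Tg+* array the median change of the 9 genes was -0.11 against *Nanos2+/-* and -0.01 against *Nanos2-/-*. Without replicate 2 of *Nanos2+/-* it was 0.03 in *Nanos2-/-* and -0.07 in *Nanos2-/-_Tg+*. The arrays of the 2 genotypes did not overlap for 1 probe that was higher and 4 that were lower in *Nanos2-/-* than in *Nanos2+/-*, beside 14.3 and 21.7% of all probes. In *Nanos2-/-_Tg+* against *Nanos2+/-* the counts were 0 and 5, beside 18.6 and 20.3%, and against *Nanos2-/-* 0 and 4, beside 20 and 11.4%.

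**Figure D2:**
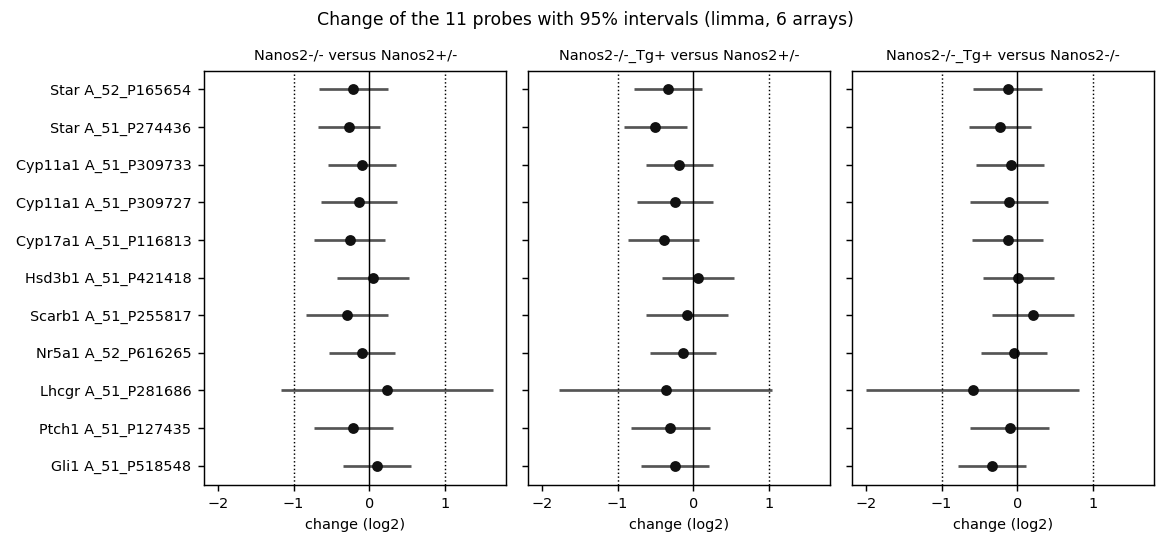
Points are the log2 change of each probe in the comparison named above the panel, lines the 95% interval from limma, and dotted lines a 2-fold change. Every interval but 1 spans 0, that of the *Star* probe A_51_P274436 between *Nanos2-/-_Tg+* and *Nanos2+/-*, and the *Lhcgr* intervals are the widest.

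*Star* showed the most regular step between genotypes. STAR is the carrier that limits the rate of steroid synthesis, and 2 probes measure its RNA. The probe A_51_P274436 read 12.6 and 12.51 in *Nanos2+/-*, 12.33 and 12.24 in *Nanos2-/-*, and 12.09 and 12.02 in *Nanos2-/-_Tg+*. No 2 genotypes overlapped, and the replicates of each lay closer to each other than to any array of another genotype. Its change in *Nanos2-/-_Tg+* against *Nanos2+/-* was -0.5 (SE 0.177, 95% interval -0.91 to -0.09), a 1.41-fold lower signal with an unadjusted p of 0.0238 and an adjusted p of 0.332 in limma, and so not called. The change in *Nanos2-/-* against *Nanos2+/-* was -0.27 (adjusted p = 0.729), and that between *Nanos2-/-_Tg+* and *Nanos2-/-*, on 1 slide, was -0.23 (95% interval -0.64 to 0.18). The second probe, A_52_P165654, read 12.47 and 12.8 in *Nanos2+/-*, 12.41 and 12.45 in *Nanos2-/-*, and 12.37 and 12.24 in *Nanos2-/-_Tg+*. It gave the same order with no overlap, at -0.33 (SE 0.196, adjusted p = 0.578) between *Nanos2-/-_Tg+* and *Nanos2+/-* and -0.13 between *Nanos2-/-_Tg+* and *Nanos2-/-*. The lowest *Nanos2+/-* array exceeded the highest *Nanos2-/-* array of this probe by less than the *Nanos2+/-* arrays differed from each other.

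Of the enzymes, *Cyp17a1* showed the largest difference. CYP17A1 is the hydroxylase and lyase that turns progestagens into androgens, and its probe read 14.97 and 15.12 in *Nanos2+/-*, 14.93 and 14.62 in *Nanos2-/-*, and 14.76 and 14.54 in *Nanos2-/-_Tg+*. Both *Nanos2+/-* arrays were above all others, and the other 2 genotypes overlapped. The change against *Nanos2+/-* was -0.26 (SE 0.202, adjusted p = 0.772) in *Nanos2-/-* and -0.39 (adjusted p = 0.518) in *Nanos2-/-_Tg+*. *Cyp11a1*, which codes for the side-chain cleavage enzyme, has 2 probes, and the brighter read 14.15 and 14.41, then 14.15 and 14.22, then 14.17 and 14.01 in the same order of genotypes. All 3 genotypes overlapped, as they did for the other probe, and the changes of both probes lay between -0.24 and -0.09. *Hsd3b1*, the dehydrogenase and isomerase of the pathway, was the gene that differed least. It read 15.11 and 15.31 in *Nanos2+/-*, 15.27 and 15.24 in *Nanos2-/-*, and 15.45 and 15.09 in *Nanos2-/-_Tg+*, with changes of 0.05, 0.06 and 0.01 in the 3 comparisons and all 95% intervals between -0.46 and 0.54.

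*Scarb1*, the receptor that takes up cholesterol from high-density lipoprotein, read 14.38 and 14.4 in *Nanos2+/-*, 14.36 and 13.83 in *Nanos2-/-*, and 14.44 and 14.18 in *Nanos2-/-_Tg+*. Only replicate 2 of *Nanos2-/-* stood apart. The change of -0.29 in *Nanos2-/-* against *Nanos2+/-* (SE 0.231, adjusted p = 0.778) was -0.02 without that array. The regulator *Nr5a1* is expressed in Sertoli cells as well as Leydig cells. It read 10.63 and 10.8 in *Nanos2+/-*, 10.73 and 10.52 in *Nanos2-/-*, and 10.61 and 10.55 in *Nanos2-/-_Tg+*. Its changes were -0.09, -0.13 and -0.04, each smaller than its SE of 0.186.

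*Lhcgr* was the one gene of the set whose replicates disagreed by more than 2-fold. It read 6.06 and 6.18 in *Nanos2+/-*, 6.2 and 6.5 in *Nanos2-/-*, and 6.86 and 4.65 in *Nanos2-/-_Tg+*. The *Nanos2-/-_Tg+* arrays were thus the highest and the lowest of the 6, with a mean of 5.76 ± 1.57 (SD, n = 2). Only 9 of the 24953 probes above background throughout, 0.0361%, were lower by as much or more on the second of these arrays than on the first, *Lhcgr* included, while the median over those probes was 0.05. The change was 0.23 in *Nanos2-/-* against *Nanos2+/-* (SE 0.602), -0.36 in *Nanos2-/-_Tg+* against *Nanos2+/-* and -0.59 in *Nanos2-/-_Tg+* against *Nanos2-/-* (95% interval -2 to 0.81). Each *Nanos2-/-_Tg+* array set the direction: without replicate 1 the last 2 changes were -1.47 (unadjusted p = 0.000747, adjusted p = 0.127) and -1.7 (adjusted p = 0.163), and without replicate 2 they were 0.75 (adjusted p = 0.646) and 0.52 (adjusted p = 1). *Lhcgr* has a single spot on each array.

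*Lhcgr* was also the one gene of the set that ranged over more than 1 log2 unit. The genes with the most similar pattern over the 6 arrays, by the root mean square difference of centred log2 values among 12438 genes, were *Zar1* (0.336), *S100pbp* (0.361) and *Spata31d1a* (0.366). *Zar1* read 7.16, 7.07, 7.13, 6.91, 7.25 and 5.95 in the order used above. All 3 were low on replicate 2 of *Nanos2-/-_Tg+* and level on the other arrays, and the match rests on that array.

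The hedgehog readouts differed little. *Ptch1*, the hedgehog receptor, read 6.62 and 7.17 in *Nanos2+/-*, 6.64 and 6.73 in *Nanos2-/-*, and 6.54 and 6.63 in *Nanos2-/-_Tg+*. One *Nanos2+/-* array was high, and the other lay among the mutants. The change was -0.21 (SE 0.225, adjusted p = 0.846) in *Nanos2-/-* and -0.31 (adjusted p = 0.672) in *Nanos2-/-_Tg+* against *Nanos2+/-*, and without the high array these were 0.06 and -0.04. *Gli1*, the transcription factor whose RNA follows pathway activity, read 9.48 and 9.6 in *Nanos2+/-*, 9.56 and 9.72 in *Nanos2-/-*, and 9.43 and 9.17 in *Nanos2-/-_Tg+*. Both *Nanos2-/-_Tg+* arrays were below the other 4. The change was 0.1 in *Nanos2-/-* against *Nanos2+/-*, -0.24 (SE 0.192, adjusted p = 0.71) in *Nanos2-/-_Tg+* against *Nanos2+/-*, and -0.34 (95% interval -0.78 to 0.11, adjusted p = 1) in *Nanos2-/-_Tg+* against *Nanos2-/-*.

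Spots repeated on an array give the error of a spot, which is technical. With 8 to 10 usable spots per array, the SD between spots was 0.05 to 0.08 for *Gli1* and 0.06 to 0.16 for *Ptch1*. The 10 *Gli1* spots of replicate 2 of *Nanos2-/-_Tg+* ran from 9.06 to 9.32, below every *Gli1* spot of the other 5 arrays. The 10 *Ptch1* spots of replicate 2 of *Nanos2+/-* ran from 7.08 to 7.27, above every *Ptch1* spot elsewhere, while the *Ptch1* means of the other 5 arrays, 6.54 to 6.73, lay within the range of single spots. Spots of 1 array share the RNA, the labelling and the hybridization and are not replicates of a genotype. The *Gli1* arrays of *Nanos2-/-_Tg+* differed from each other by more than the spots did, and the test between genotypes used 1 value per array.

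**Figure D3:**
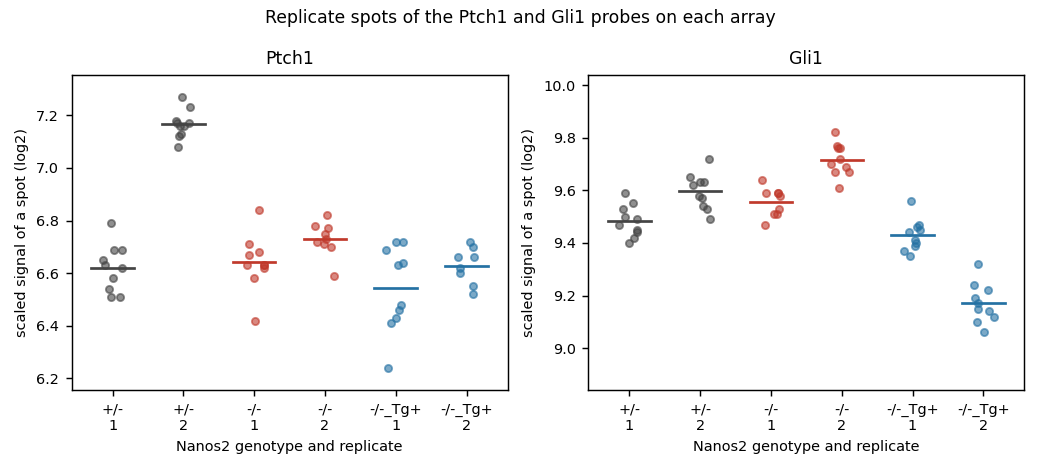
Each point is 1 spot of the *Ptch1* (left) or *Gli1* (right) probe, with its scaled log2 signal on the vertical axis and the 6 arrays on the horizontal axis; bars are the mean of an array. *Ptch1* is high on replicate 2 of *Nanos2+/-* alone, and *Gli1* is lowest on replicate 2 of *Nanos2-/-_Tg+*.

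Among the other genes of the hedgehog pathway, the ligand *Dhh* read between 14.6 and 14.99 on all arrays and differed by -0.04, -0.03 and 0.01 in the 3 comparisons. *Smo*, the transducer below PTCH1, differed by -0.2, -0.06 and 0.14. *Hhip*, a membrane decoy for the ligands and itself a target of the pathway, differed by -0.03, -0.08 and -0.05. *Shh* was at 4.8 and 5.17 in *Nanos2+/-*, 5.26 and 5.16 in *Nanos2-/-*, and 5.87 and 5.61 in *Nanos2-/-_Tg+*, a change of 0.76 between the first and the last (adjusted p = 0.227). *Ihh* was well above background only in *Nanos2+/-*, at 5.16 and 4.85. At this scaling its mean there was at least 2.62-fold higher than in *Nanos2-/-* (adjusted p = 0.117). Against *Nanos2-/-_Tg+* it was at least 2.12-fold higher (adjusted p = 0.147), and neither was called. After normexp background correction the changes against *Nanos2+/-* were -0.65 and -0.54, smaller than these bounds, which take no account of sampling error. *Ihh* passed the filter only through *Nanos2+/-*, where it was higher. Each bound sets the mean of the bright genotype against, on each dim array, the higher of the probe's own signal and the lowest signal well above background there. Of the 21 listed pathway genes, *Gli2* and *Kif7* had no probe and *Gli3* was too dim to test.

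The one call in that list was *Foxf1*, a forkhead factor induced by hedgehog signals in several mesenchymes. It passed the filter on dim probes only through the 2 mutant genotypes, where it was higher, so the call is not independent of the filter, and with probes well above background on all 6 arrays it was not tested. It was not well above background in *Nanos2+/-*, at 3.19 and 3.43, while *Nanos2-/-* gave 4.15 and 4.73, and *Nanos2-/-_Tg+* gave 5.35 and 5.51. No genotypes overlapped. At this scaling it was at least 3.26-fold higher in *Nanos2-/-_Tg+* than in *Nanos2+/-* (adjusted p = 0.0359) and at least 1.64-fold higher in *Nanos2-/-* (adjusted p = 0.23). Between *Nanos2-/-_Tg+* and *Nanos2-/-*, on 1 slide, the change was 0.99 (SE 0.241, unadjusted p = 0.0038, adjusted p = 1). The call in the first of these was lost without either *Nanos2+/-* array (adjusted p = 0.24 without replicate 1 and 0.0872 without replicate 2) and without either *Nanos2-/-_Tg+* array (0.055 and 0.0694), and the change was 0.17 after normexp and 1.11 (adjusted p = 0.254) with a floor of 20. Over the 18 hedgehog genes tested, 6, 5 and 12 were higher in the 3 comparisons, with medians of -0.1, -0.08 and 0.04. By its brightest probe *Stk36*, a kinase linked to the pathway, stood at -0.47 and -0.57 against *Nanos2+/-* (adjusted p = 0.525 and 0.303). Its second probe was also lower, with means of 8.43, 7.56 and 7.73 in *Nanos2+/-*, *Nanos2-/-* and *Nanos2-/-_Tg+*. Its dimmest was not, at 4.21, 4.39 and 4.47. *Foxf2* and *Hhat* were at -0.33 between *Nanos2-/-_Tg+* and *Nanos2-/-*, where the second *Hhat* probe had means of 6.79 and 6.7.

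Of the 15 other genes of steroid synthesis, 14 were tested and none was called. In *Nanos2-/-* against *Nanos2+/-* 12 of the 14 were lower, with a median of -0.18. In *Nanos2-/-_Tg+* 13 of 14 were lower against *Nanos2+/-*, with -0.13, and 8 of 14 against *Nanos2-/-*, with -0.03. Over all 12972 genes the medians were -0.071, -0.021 and 0.048, and the share that was lower is not given here. The largest difference was *Stard4*, a cytosolic cholesterol carrier, whose brightest probe read 11.1 and 11.13 in *Nanos2+/-*, 10.74 and 10.68 in *Nanos2-/-*, and 10.59 and 10.2 in *Nanos2-/-_Tg+*. No genotypes overlapped, and the change in *Nanos2-/-_Tg+* against *Nanos2+/-* was -0.72 (adjusted p = 0.229). Its other 2 probes overlapped between those genotypes and read 7.35 and 7.67 against 7.54 and 7.58, and 7.31 and 7.64 against 7.1 and 7.5. *Tspo*, a protein of the outer mitochondrial membrane, differed by -0.45 and -0.48 against *Nanos2+/-* (adjusted p = 0.644 and 0.5), with 1 *Nanos2+/-* array at 10.98 and the other 5 arrays between 10.12 and 10.38. *Hsd17b1* differed by -0.6 in *Nanos2-/-* against *Nanos2+/-*, but its replicates differed by more than this in *Nanos2+/-*, at 10.95 and 9.88. *Hsd3b6*, a close relative of *Hsd3b1*, differed by 0.38 and 0.18 against *Nanos2+/-*, and *Por* by 0.04 in *Nanos2-/-*. Between *Nanos2-/-_Tg+* and *Nanos2-/-* the ends of this list were *Stard4* (-0.31) and *Hsd3b6* (-0.2), and *Hsd17b1* (0.56) and *Stard5* (0.13).

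The cholesterol list, of synthesis enzymes and of uptake and storage proteins, had 25 of 26 genes tested and no call. In it, 22, 15 and 8 of 25 were lower in the 3 comparisons, with medians of -0.1, -0.04 and 0.06. Those over all 12972 genes were -0.071, -0.021 and 0.048. The largest differences against *Nanos2+/-* were *Hsd17b7* at -0.39 and *Mvk* at -0.34 in *Nanos2-/-*, and *Lipe*, hormone-sensitive lipase, at -0.41 in *Nanos2-/-_Tg+* (adjusted p = 0.485), where *Hsd17b7* was at -0.35. At the upper end were *Lss* (0.09) and *Cyp51* (0.04) in *Nanos2-/-*, and *Srebf2* (0.23) and *Soat1* (0.19) in *Nanos2-/-_Tg+*. The other *Soat1* probes did not show a rise with the transgene. Their means in *Nanos2+/-*, *Nanos2-/-* and *Nanos2-/-_Tg+* were 10.07, 9.77 and 9.41 for one and 8.31, 8.33 and 8.24 for the other. Between *Nanos2-/-_Tg+* and *Nanos2-/-* the ends, by the brightest probe, were *Lss* and *Lipe*, both at -0.2, and *Hmgcs1* (0.33) and *Soat1* (0.31). Of 21 genes of Leydig progenitors and fate regulators none was called, and the medians were -0.03, 0.1 and 0.16. There, *Zfpm2* was at -0.46 in *Nanos2-/-* (adjusted p = 0.604), with *Notch1* at -0.33, *Hes1* at 0.24 and *Jag1* at 0.1, and in *Nanos2-/-_Tg+* *Nr4a1* was at -0.36, *Cited2* at -0.22, *Nr0b1* at 0.29 and *Jag1* at 0.24, all against *Nanos2+/-*. Between *Nanos2-/-_Tg+* and *Nanos2-/-* the ends were *Notch2* (-0.19) and *Nr4a1* (-0.09), and *Zfpm2* (0.3) and *Tcf21* (0.27). Of 9 further fetal Leydig markers tested none was called, with medians of -0.17, 0.02 and 0.06. *Ren1* varied most among them, at 14.17 and 13.99, 14.87 and 13.5, and 15.2 and 14.68 in the 3 genotypes, a change of 0.87 in *Nanos2-/-_Tg+* against *Nanos2+/-* (adjusted p = 0.489), and *Inha* was at -0.33, *Gramd1b* at -0.25 and *Thbs2* at 0.04 there. In *Nanos2-/-* against *Nanos2+/-*, *Inha* was at -0.25, *Gramd1b* at -0.23, *Ren1* at 0.11 and *Vcam1* at 0.02. The second *Gramd1b* probe was instead higher in *Nanos2-/-*, with means of 7.15, 7.35 and 7.13 in *Nanos2+/-*, *Nanos2-/-* and *Nanos2-/-_Tg+*. The second probes of *Inha* (11.25, 11.01 and 10.85) and *Ren1* (10.35, 10.39 and 11.36) went the same way as the brightest. Between *Nanos2-/-_Tg+* and *Nanos2-/-*, *Ren1* was at 0.76, *Thbs2* at 0.23, *Inha* at -0.08 and *Gramd1b* at -0.03.

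**Figure D4:**
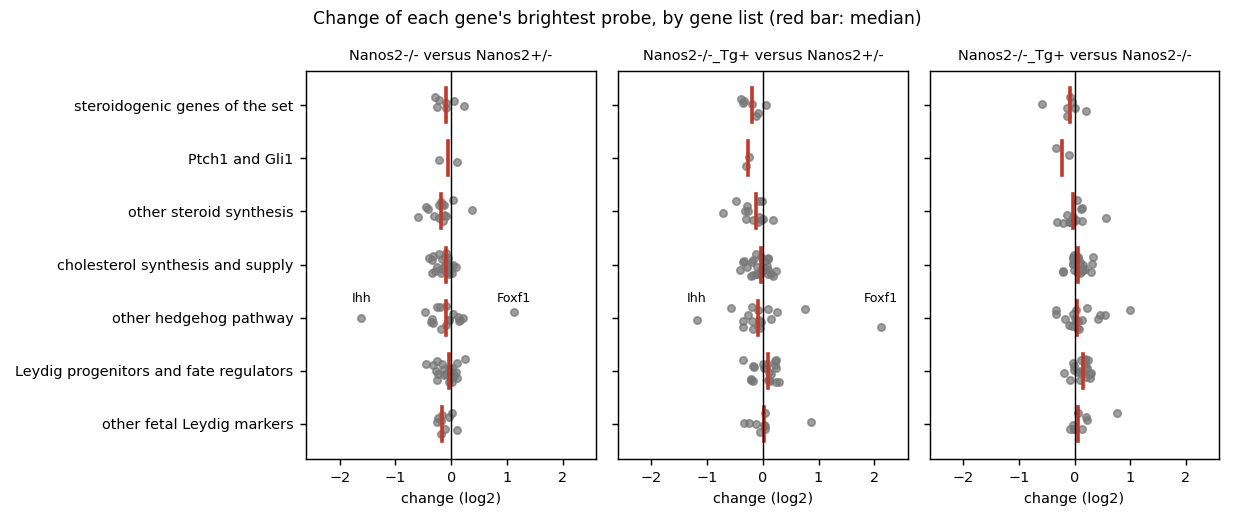
Each point is the log2 change of 1 gene, by its brightest probe, in the comparison named above the panel; rows are the gene lists and red bars their medians. The medians lie between -0.27 and 0.16, and *Ihh* and *Foxf1* of the hedgehog list are the genes beyond a 2-fold change.

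Markers of other cell types were set beside the genes of the set. Of 6 adrenal cortex markers, *Cyp11b2* was at the floor of 5 on all 6 arrays, *Cyp21a1* was not well above background on any, and *Cyp11b1* had no probe. *Mc2r*, *Mrap* and *Akr1b7*, which fetal Leydig cells can also express, were measured and summed with the others to between 2920 and 3680 on the linear scale. Whether adrenal cells were present was not tested. The summed signal of the Leydig markers, which are genes of the set, was 91300 and 105000 in *Nanos2+/-*, 94500 and 88700 in *Nanos2-/-*, and 96400 and 80000 in *Nanos2-/-_Tg+*, so that replicate 2 of *Nanos2-/-_Tg+* was the lowest. The sums of the 10 Sertoli cell markers, all well above background, were 125000 and 186000, 135000 and 184000, and 152000 and 173000. Replicate 2 was the higher in each genotype, and *Cst9*, at 15.87 to 16.71 in log2, was the largest part of each sum. *Dmrt1* of that list read 7.44 and 7.32, then 8.2 and 9.07, then 8.62 and 9.06. Its change against *Nanos2+/-* was 1.25 (adjusted p = 0.266) and 1.46 (adjusted p = 0.147), with no overlap. The median changes of the 10 Sertoli markers were -0.03 and -0.01, and which cells held the *Dmrt1* RNA was not tested. The sums of the 8 germ cell markers were 114000 and 155000, 108000 and 136000, and 122000 and 144000, with replicate 2 again the higher in each genotype. *Dnd1* among them stood at -0.81 and -0.82 against *Nanos2+/-* (adjusted p = 0.258 and 0.176). Of these markers the study reports *Dppa3* as raised and *Tdrd1* as lowered in the mutants, so the sum need not follow the number of germ cells. The 6 blood markers summed to 142000 to 213000, with both *Nanos2-/-_Tg+* arrays at the top. *Hba-a1*, at 16.88 to 17.52 in log2, was the largest part of each blood sum. The 6 endothelial markers summed to 11100 to 14600 and the 4 macrophage markers measured to 3630 to 4450. The 7 mesonephros markers summed to between 865 and 1660, *Pax2* was not well above background on any array, and *Cdh16* varied most, between 3.94 and 8.6. *Dmrt1*, *Dnd1* and *Cdh16* were named after their values were seen. The part of these other cell types in the values of the 9 genes was not tested.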

How the data were processed

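Total RNA of E14.5 male gonads had been hybridized by the authors to 6 one-colour Agilent whole mouse genome arrays, 2 per genotype. Genotype and replicate number came from the sample labels, and slide from the file headers. The deposited scanner files hold, for each spot, the intensity after the background subtraction and spatial detrending of Feature Extraction. Its version is 9.5.3.1 in the headers and 9.5 in the submitters' processing notes, while the published methods name an earlier one. The deposited value table holds the same intensity and differed by at most 0.497%. The authors' methods raise values below 5 to 5 and scale to the 50th percentile.

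Control and outlier spots were left out, and the rest were scaled so that all arrays share their 50th percentile, given a floor of 5 and averaged, as log2, over the spots of a probe. Tested were the 26698 probes that stood well above background on both arrays of a genotype, and 13 without a value on an array were left out. Changes were tested with limma 3.58.1 (lmFit and eBayes, 4.55 prior degrees of freedom, R 4.3.3), with calls at an adjusted p below 0.05 and 2-fold. With 2 arrays against 2, an exact rank test cannot give a two-sided p below 0.333. Genes were named through design accessions and RefSeq (23374 probes matched). Sums of markers use the brightest probe of a gene, and the number of arrays limits the precision.

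The members, gene lists and tests were chosen with earlier results of these data known. Named are all probes of the members, and of each pathway list the called genes and the 2 largest differences in each direction, with set hedgehog genes, of which one is not reported here. *Zar1*, *S100pbp* and *Spata31d1a* were named by their likeness to *Lhcgr*. The GC box was chosen after the values were seen. Alternatives were another percentile, quantile normalization, normexp (offset 50, on the median spot signal), other floors and filters, outlier spots kept, the value table, a replicate block, an intensity trend, 4 arrays, the methods' t-test (equal variances) and leaving out each array. Figures were drawn with matplotlib.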

Additional observations from a re-analysis of the deposited data

How the results depend on the processing

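No probe of the set was called under any of the 22 alternatives in any comparison, the methods' t-test with its 2-fold limit included, and the count of 0 did not depend on leaving out any array. The median change of the 9 genes moved most under normexp, where it was 0.77 in *Nanos2-/-* and 0.58 in *Nanos2-/-_Tg+* against *Nanos2+/-* while the median of all probes was 0.562 and 0.524; between *Nanos2-/-_Tg+* and *Nanos2-/-* it was -0.18, and the cause was not tested. Under the other alternatives that keep all arrays the medians ran from -0.11 to -0.04, from -0.24 to -0.23 and from -0.16 to -0.1 in the 3 comparisons. Leaving out 1 array gave medians from -0.22 to 0.03, from -0.32 to -0.07 and from -0.17 to -0.01, so that the first changed sign. The replicate numbers have no stated meaning across genotypes, and the replicate differences of the genotypes correlated at 0.355, 0.313 and 0.259 over probes. A replicate block, which takes the numbers as a pairing, left the medians at -0.1, -0.24 and -0.1, the member calls at 0 and the call of *Foxf1* in place (adjusted p = 0.0265), and the calls over all probes were 18, 145 and 4.

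The calls over all probes, 18, 28 and 5, were 5, 10 and 4 at the 75th percentile and after quantile normalization, 0 in each comparison under normexp or a floor of 20, 1, 5 and 1 for probes well above background on all arrays, 3, 5 and 2 on at least 1, 2, 4 and 0 without a filter, 5, 18 and 3 with an intensity trend, 38, 85 and 1 with 4 arrays, and 153, 234 and 40 by the methods' t-test (0 after adjustment). Higher calls were 5 of 18 and 8 of 28 against *Nanos2+/-*, but 0 of 5 and 5 of 10 at the 75th percentile. *Foxf1* also lost its call at the 75th percentile (adjusted p = 0.0782), after quantile normalization (0.138), with a floor of 20 (0.254), with the wider filters (0.205 and 0.21) with the intensity trend (0.0637) and by the methods' t-test after adjustment (0.667). *Ihh* and *Foxf1* were each measured above background in only some genotypes.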
